A study of Mus musculus with 11 samples.

Results

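The collagen, laminin and integrin genes are 85 of the 54838 genes in the count files, counting with them Fn1, Hspg2, Nid1, Nid2 and Sparc, which code for other proteins of the extracellular matrix. The members are the protein-coding genes whose mouse symbol begins with Col, Lama, Lamb, Lamc, Itga or Itgb followed by a number in the usual form of these families, plus those 5 genes. By role they are 11 laminin chains, 6 chains of collagen IV, 11 fibrillar collagens, 27 other collagens, 12 integrin alpha chains, 9 integrin beta chains, the 5 named matrix genes and 4 genes that share the form of name without coding for a chain (Col4a3bp, Itgb1bp1, Itgb1bp2 and Itgb3bp). Integrin subunits named by a letter, such as Itgav, fall outside the symbol pattern and are given with the other adhesion genes. The cells were E14 mouse embryonic stem cells (ESCs), kept in LIF on gelatin. Total RNA was taken 36 h after transfection with a control siRNA of scrambled sequence (3 libraries), with CMTR1 siRNA 1 (4 libraries) or with CMTR1 siRNA 2 (4 libraries). CMTR1 methylates the first transcribed nucleotide of RNA polymerase II transcripts, and the comparisons ask how transcript levels in ESCs differ when it is targeted by either siRNA. All 3 groups share the cell line, the medium and the transfection.

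Basement membranes are thin sheets of matrix that lie against cells. Laminins are trimers of an alpha, a beta and a gamma chain that assemble at the cell surface, collagen IV forms a second network, and nidogens and the proteoglycan perlecan (Hspg2) connect them. Fibrillar collagens build the fibres of connective tissue, and integrins, each an alpha chain paired with a beta chain, are the receptors through which cells hold on to matrix. In the early embryo laminin and collagen IV are made by the epiblast and, in large amounts, by the primitive endoderm and its derivatives, and ESCs in culture attach to matrix mainly through integrins of the beta 1 family.

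Reads counted in genes ranged from 6738478 to 8382318 per library, and the members took 0.685% to 0.891% of them. At this depth 3 reads correspond to 0.358 to 0.445 CPM (the usual scaling of counts to the reads counted in genes). Nothing in the labels ties libraries to separate cultures, although the methods speak of 3 biological replicates. The P-values measure the spread between these libraries, which may be technical. The targeted gene Cmtr1 was at 21.3, 21.7 and 17.9 CPM in control, 21.1, 21.3, 16.2 and 18 CPM with siRNA 1 and 15.6, 16.8, 16.4 and 19.5 CPM with siRNA 2, and it did not pass the test with siRNA 1 (log2 fold change −0.088, SE 0.11, FDR adjusted P-value 0.743) or with siRNA 2 (log2 fold change −0.25, SE 0.11, FDR adjusted P-value 0.144). The paper describes CMTR1 as repressed after transfection of these siRNAs, and the counts used here hold no protein levels. Markers of ESCs were present in all libraries, with Pou5f1 at 473 to 497 CPM in control, and the summed level of the 8 ESC markers was 1676 to 1762 CPM in control, 1373 to 1576 CPM with siRNA 1 and 1499.5 to 1581 CPM with siRNA 2. All of those 8 markers had log2 fold changes below 0 with both siRNAs. At an FDR of 0.05 the test called 6 of them lower with siRNA 1 and 4 with siRNA 2. Over all genes tested 1.97% and 3.55% were called lower. In bulk RNA fewer cells of a type and less RNA per cell cannot be told apart.

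Of the 85 members, 63 had more than 1 CPM in at least 4 libraries and were tested. The other 22 did not reach that level (3 collagen IV chains, 1 fibrillar and 11 other collagens, 2 laminin chains, 2 integrin alpha and 3 integrin beta chains) and had at most 14 reads in any library. Itgb2l had no read in any library, which allows at most 0.358 to 0.445 CPM, and the best covered of the untested collagen IV chains, Col4a6, had 2 to 8 reads per library. The glomerular collagen IV chains Col4a3 and Col4a4 had at most 1 and 2 reads in any library. Among the tested members 58 exceeded 1 CPM in all 11 libraries, 14 had over 100 CPM on average, and 31 had under 10 CPM, where counting error is largest.

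The highest levels were those of genes of basement membrane and matrix. On the scale of CPM per kilobase of annotated exon, which allows levels of different genes to be compared, Lamc1 was at 108 ± 8.3 (SD, n = 3) in control libraries, Col18a1 at 102 ± 7.2, Fn1 at 99.6 ± 6.6, Nid2 at 89.4 ± 5.1 and Hspg2 at 84.2 ± 7.5. Neighbours in the order of Lamc1, Col18a1 and Fn1 differed by less than their SD. Among laminin chains the order was Lamc1, Lama5 (71.3 ± 5.3), Lamb1 (38.5 ± 3.9), Lama1 (30.9 ± 4.5) and Lamb2 (7.91 ± 0.44), so that the chains of the laminins of the early embryo, which combine Lama1 or Lama5 with Lamb1 and Lamc1, were the highest 4. Lama3, a chain of epithelial basement membranes, was lower (2.69 ± 0.099). Collagen IV was represented by Col4a1 (23.2 ± 3.6) and Col4a2 (14.2 ± 3.0), with Col4a5 at 0.170 ± 0.069.

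Itgb1, the shared beta chain of most receptors for laminin, collagen and fibronectin, was at 52.4 ± 3.3 CPM per kilobase in control, above the next beta chains, Itgb5 (6.72 ± 0.65) and Itgb7 (3.71 ± 0.48). The 3 highest alpha chains were Itga3 (37.9 ± 2.2) and Itga6 (31.7 ± 1.1), which bind laminin with Itgb1, and Itga5 (28.9 ± 0.93), the fibronectin receptor chain. The fourth, Itga9, was at 2.43 ± 0.27. The highest fibrillar collagens, Col2a1 and Col5a1, were at 3.72 ± 0.36 and 3.61 ± 0.33 CPM per kilobase, and Sparc, a collagen-binding matrix protein, was at 51.2 ± 2.1.

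**Figure D1:**
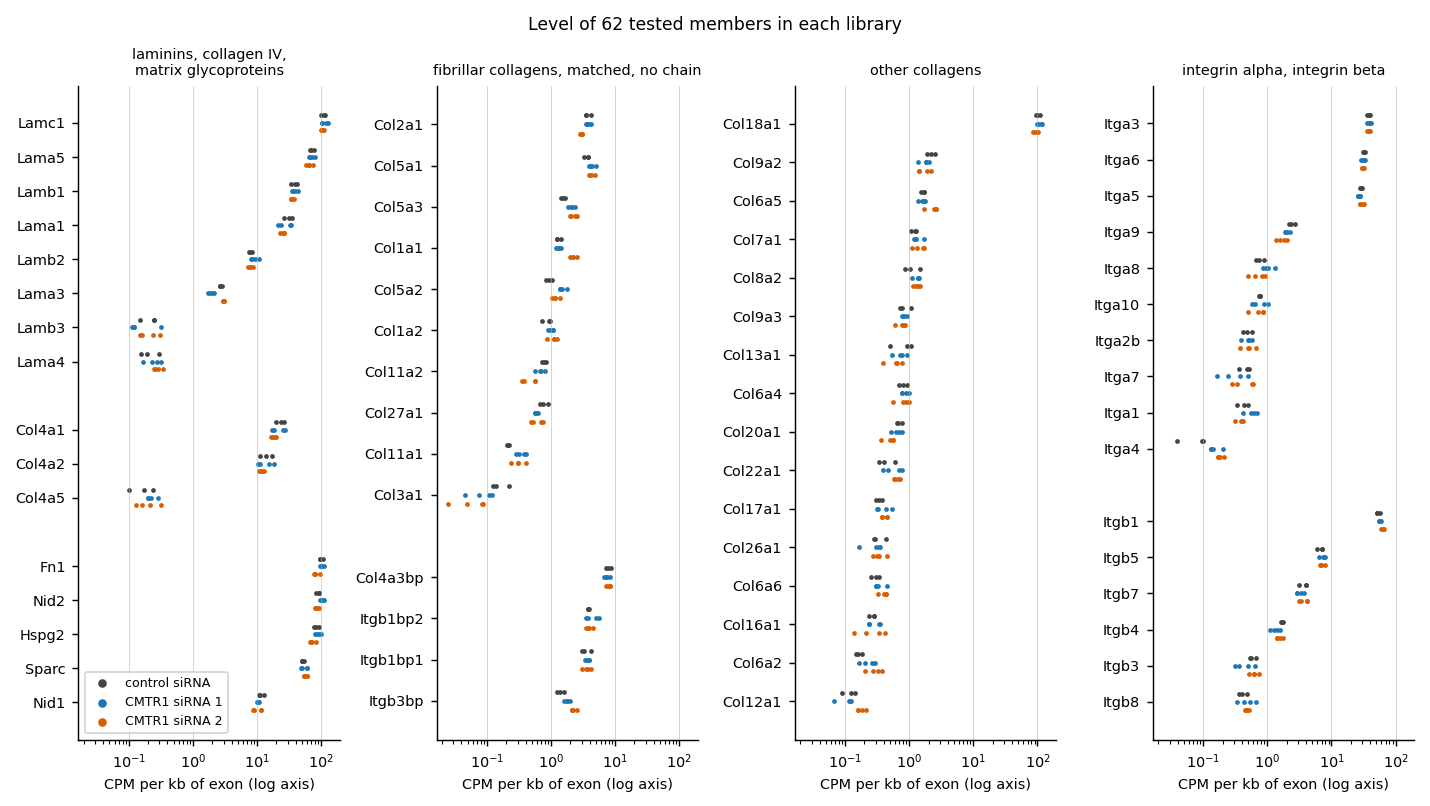
Level of each of 62 of the 63 tested members in each of the 11 libraries, in CPM per kilobase of exon on a log axis, by family; points are libraries of control siRNA (dark grey), CMTR1 siRNA 1 (blue) and CMTR1 siRNA 2 (orange). Lamc1, Col18a1, Fn1, Nid2 and Hspg2 have the 5 highest means in every group, while 31 members had under 10 CPM on average.

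With siRNA 1, 4 of the 63 tested members passed edgeR's quasi-likelihood test at an FDR of 0.05, with Benjamini-Hochberg adjustment over all genes tested. Col5a2, Col5a3 and Nid2 were higher and Lama3 was lower. Over all 16073 genes tested 4.67% were called, 2.71% higher and 1.97% lower. The median log2 fold change of the members was 0.037, beside 0.024 over all genes. Without control replicate 2 the test called 2 members.

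With siRNA 2, 14 of the 63 passed, 6 higher and 8 lower. The 6 were Col1a1, Col5a3, Col6a5, Itga4, Itgb1 and Itgb3bp, and the 8 were Col4a1, Lama1, Fn1, Hspg2, Col2a1, Col11a2, Col3a1 and Itga9. Col3a1 passed the filter through its control and siRNA 1 libraries alone, so its place among the 8 was favoured by the filter. Over all genes 9.72% were called, 6.17% higher and 3.55% lower. The members' median log2 fold change was 0.018, beside 0.029 over all genes, both with total-count scaling. With TMM factors the members' median was −0.0064, for which no all-gene value is given here. DESeq2 called 9 of the 63, with no adjusted P-value for 17 of them.

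The direct comparison of siRNA 2 with siRNA 1 is the test of whether the siRNAs differed. It called 11 of the 63 members, with Col1a1, Lama3, Col6a5 and Itgb1 higher with siRNA 2, and with Fn1, Hspg2, Nid2, Col18a1, Col2a1, Itga1 and Itga8 lower. Over all genes 7.44% were called, 4.49% higher and 2.96% lower, and the median was −0.031 for the members and 0.0018 for all genes. The comparisons of each siRNA with control use the same 3 control libraries, so their values are given side by side without a measure of likeness. Without siRNA 1 replicate 3 the comparison of the siRNAs called 18 members. In all, 20 members were called in at least 1 of the 3 comparisons and 43 in none.

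**Figure D2:**
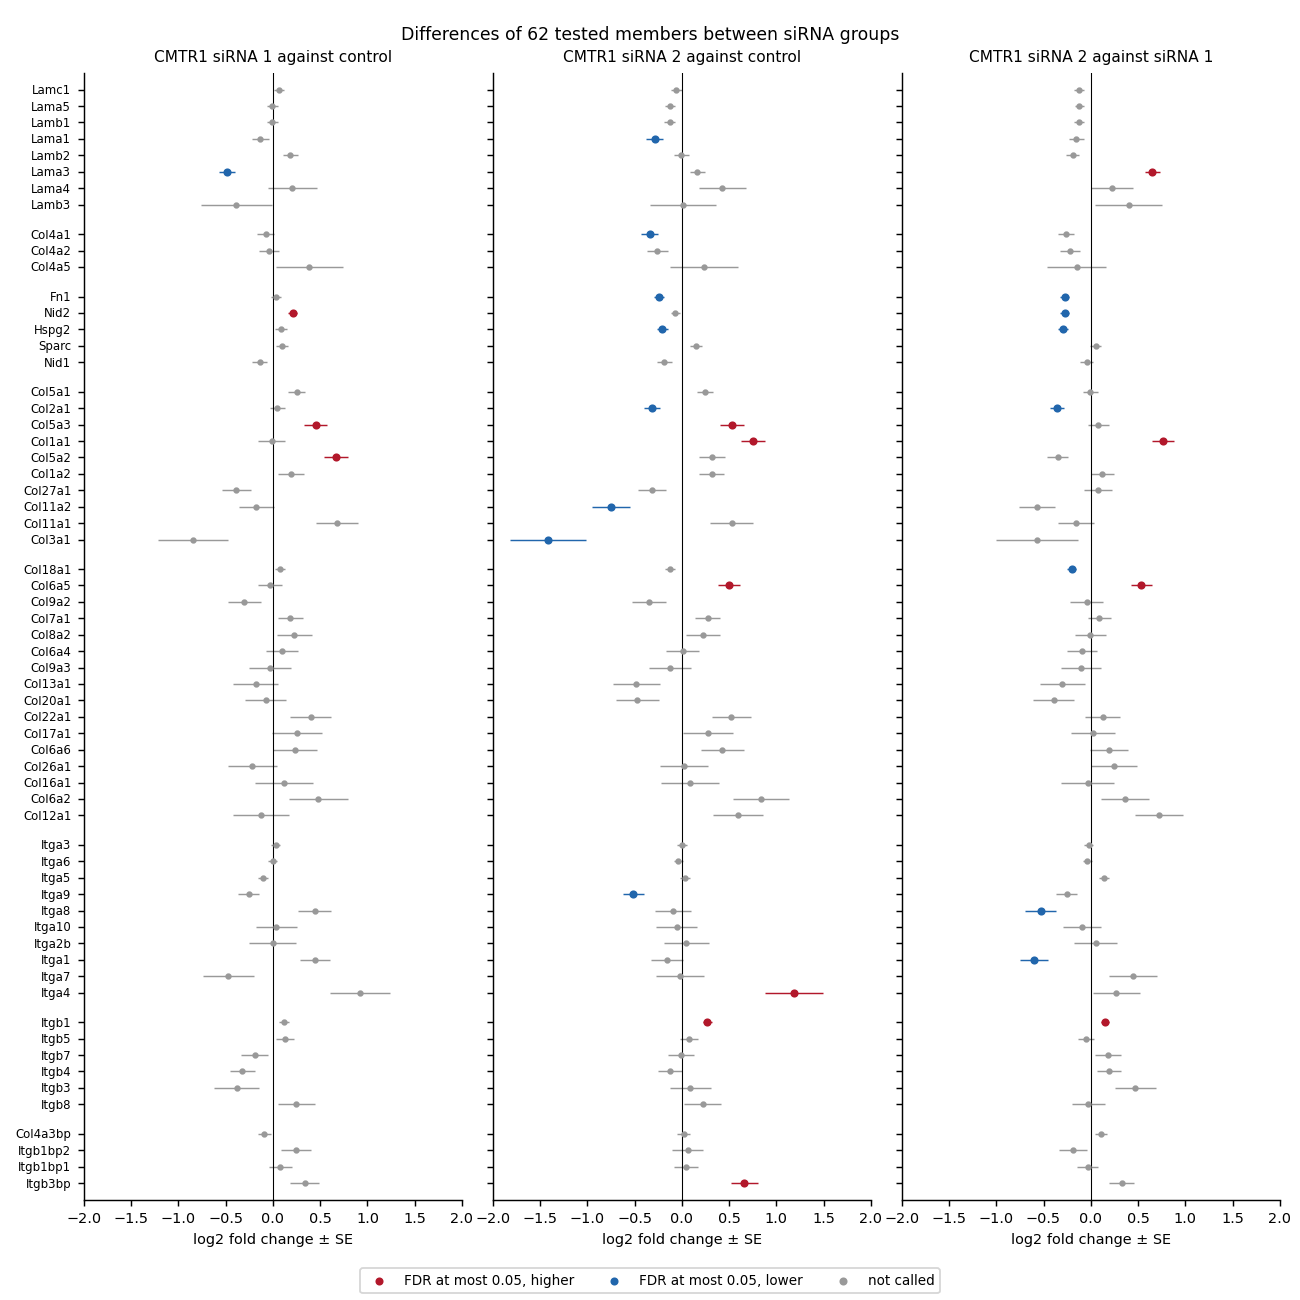
Log2 fold change ± SE of 62 of the 63 tested members in the 3 comparisons, ordered by family and level; red marks members higher and blue members lower at an FDR of at most 0.05, grey those not called. The panels hold 4, 14 and 11 called members, and Col1a1 and Lama3 stand to the right in the comparison of siRNA 2 with siRNA 1.

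Of 9 tested laminin chains 1 was called with siRNA 1 and 1 with siRNA 2, beside 4.67% and 9.72% of all genes tested. With siRNA 1 it was Lama3, the alpha chain of the laminin that anchors epidermis (ENSMUSG00000024421), which was at 27.9, 28.6 and 30.01 CPM in control, 20.03, 18.2, 21.3 and 22.9 CPM with siRNA 1 and 32.1, 31.6, 32.8 and 32.8 CPM with siRNA 2. The 4 siRNA 1 libraries lay below all control libraries and the 4 siRNA 2 libraries above them. Lama3 was thus lower with siRNA 1 (log2 fold change −0.49, SE 0.09, FDR adjusted P-value 0.000266) and higher with siRNA 2 than with siRNA 1 (log2 fold change 0.65, SE 0.08, FDR adjusted P-value 2.17e-07), whereas siRNA 2 against control gave log2 fold change 0.16, SE 0.08, FDR adjusted P-value 0.207. Both calls held in all 20 alternative fits, which changed the scaling, test, filter, model or trend correction or left out 1 library.

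Lama1, the alpha chain of the first laminin of the embryo (ENSMUSG00000032796, chr17:67697259-67822647, plus strand), was at 342, 255 and 299.9 CPM in control, 333, 319.5, 207 and 228 CPM with siRNA 1 and 257, 253, 249 and 219.9 CPM with siRNA 2. Its siRNA 2 libraries overlapped with control library 2, and the siRNA 1 libraries spread from below to above those of siRNA 2. It was called lower with siRNA 2 (log2 fold change −0.29, SE 0.09, FDR adjusted P-value 0.0335). The call was lost without control replicate 1 (−0.18, 0.291, a log2 fold change and its FDR adjusted P-value, as in every such pair of values), control replicate 3 (−0.29, 0.104) or siRNA 2 replicates 2 or 4 (−0.31, 0.0520 and −0.24, 0.108), with DESeq2 (−0.32, 0.324) and with the replicate number as a block (−0.22, 0.0513). Its partner chains Lamb1 and Lamc1 gave log2 fold changes of −0.13 (95% interval −0.24 to −0.015) and −0.059 (−0.17 to 0.053) with siRNA 2, and Lama5 gave −0.13 (−0.24 to −0.011), none of them past the threshold. The Lamb1 and Lamc1 intervals with siRNA 1 were −0.12 to 0.11 and −0.050 to 0.17.

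Collagen IV is the network collagen of basement membranes, and its common form is built from Col4a1 and Col4a2 chains. These 2 genes lie head to head on chromosome 8 of GRCm38, Col4a1 on the minus strand (ENSMUSG00000031502, chr8:11198423-11312826, minus strand) and Col4a2 on the plus strand (ENSMUSG00000031503, chr8:11312805-11449287, plus strand), and their gene bodies overlap by 22 bases. Their promoter windows, 250 bases before to 50 after each start in the RefSeq table of GRCm38.p6, are shown because the starts of both genes lie in this stretch. Any part of the stretch in the levels of Col4a1 and Col4a2 was not tested. The 78 bases that both windows hold, chr8:11312777-11312854, are in capitals, and each window is written 5′ to 3′ on the strand of its gene.
Col4a1, chr8:11312777-11313076, minus strand: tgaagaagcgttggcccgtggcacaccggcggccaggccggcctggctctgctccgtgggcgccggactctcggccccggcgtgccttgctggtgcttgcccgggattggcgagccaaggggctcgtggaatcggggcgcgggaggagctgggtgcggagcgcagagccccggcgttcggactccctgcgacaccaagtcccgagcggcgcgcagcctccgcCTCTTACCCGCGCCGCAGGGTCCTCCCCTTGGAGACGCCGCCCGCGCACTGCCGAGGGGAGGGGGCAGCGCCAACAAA
Col4a2, chr8:11312555-11312854, plus strand: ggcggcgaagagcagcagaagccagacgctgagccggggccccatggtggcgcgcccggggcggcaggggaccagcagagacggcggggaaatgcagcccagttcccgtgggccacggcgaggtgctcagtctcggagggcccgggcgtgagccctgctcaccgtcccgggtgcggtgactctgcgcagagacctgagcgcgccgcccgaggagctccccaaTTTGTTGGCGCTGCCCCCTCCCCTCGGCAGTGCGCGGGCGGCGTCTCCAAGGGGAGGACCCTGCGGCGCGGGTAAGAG
GC content was 74.0% and 73.7% in these windows, and the median over all promoter windows of that table was 52.7%. The GC box GGGCGG, searched on both strands, occurred 1 time in the Col4a1 window and 3 times in that of Col4a2, 1 of these in the shared stretch, and 35.7% of all 32851 windows hold it. The CCAAT box occurred 1 time in each window, never wholly within the shared stretch (37.4% of all windows hold it), and TATAAA in neither (13.6% of all windows hold it). The motifs were searched as these letters alone.

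Col4a1 was at 199.7, 146 and 174 CPM in control, 202, 188, 129.96 and 137 CPM with siRNA 1 and 147, 145, 132 and 124 CPM with siRNA 2, and Col4a2 at 114, 74.5 and 92.5 CPM in control, 120.2, 103, 67.5 and 73.5 CPM with siRNA 1 and 79, 84.3, 77.7 and 71.5 CPM with siRNA 2. In both genes the libraries of control and siRNA 1 spread widely, and the siRNA 2 libraries lay near the lowest of them. Col4a1 was called lower with siRNA 2 (log2 fold change −0.34, SE 0.09, FDR adjusted P-value 0.0116). Without control replicate 1 the call was lost (−0.22, 0.172), and DESeq2 did not make it (−0.37, 0.213). Col4a2 had a log2 fold change of −0.26 with siRNA 2 (95% interval −0.48 to −0.039, FDR adjusted P-value 0.133) and was not called. With siRNA 1 the log2 fold changes were −0.078 (−0.26 to 0.10) and −0.044 (−0.26 to 0.18). Markers of primitive and parietal endoderm, a cell type rich in collagen IV and Lama1, summed to 1080.0 to 1299 CPM in control, 1093 to 1374 CPM with siRNA 1 and 1158 to 1301 CPM with siRNA 2, mostly from Lrp2. None of the 10 was at 0 in all libraries. Of 9 tested, Cubn alone was called, lower with siRNA 1 (log2 fold change −0.43, FDR adjusted P-value 0.00533) and siRNA 2 (−0.39, 0.00691). Log2 fold changes lay below 0 for 7 of the 9 with siRNA 1 (median −0.021) and 8 with siRNA 2 (median −0.092). Over all 16073 genes tested 6944 and 6891 lay below 0. With siRNA 2 the 1 marker above 0 was Lrp2 (0.062). The part of these markers in the levels of Col4a1 and Lama1 was not tested.

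Within groups, Col4a1, Col4a2 and Lama1 were high and low in the same libraries. Control library 1 and siRNA 1 libraries 1 and 2 had the highest values of all 3 genes in their groups, while control library 2 and siRNA 1 libraries 3 and 4 had the lowest. With siRNA 2, libraries 1 and 2 also lay above libraries 3 and 4 for all 3 genes, over a narrower range. For 10 gene pairs the deviations of log2(CPM + 0.5) from the group mean were correlated over the 11 libraries, with exact permutation within groups and Benjamini-Hochberg adjustment over the 10. The pairs of Col4a1 with Lama1, Gata6, Cubn and Pou5f1 were added after the values had been seen. Of the 10 endoderm markers only Gata6 and Cubn were run, and the adjustment does not cover that choice. All libraries share 1 cell line and total-count scaling, and the labels give no batch. The permutation takes the libraries of a group as exchangeable. How often other gene pairs reach such values was not tested, nor was any part of a library order shared by many genes.

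For Col4a1 and Col4a2 the values were Pearson's r = 0.983, exact p = 0.000579, adjusted 0.00193, Spearman's rho = 0.982, exact p = 0.00174, adjusted 0.00434, and r without the 2 libraries farthest from the median of Col4a1 was 0.971. Col4a1 and Lama1 gave Pearson's r = 0.986, exact p = 0.000289, adjusted 0.00145, Spearman's rho = 0.982, exact p = 0.000579, adjusted 0.00289, where 0.000289 is the smallest p that the permutations allow, and r without 2 libraries was 0.979. With Col4a1, the endoderm genes Cubn and Gata6 had r of 0.968 (exact p = 0.00145, adjusted 0.00289, rho = 0.955, exact p = 0.00260, adjusted 0.00521) and 0.877 (exact p = 0.0110, adjusted 0.0137, rho = 0.891, exact p = 0.0110, adjusted 0.0157), and 0.952 and 0.896 without 2 libraries. Pou5f1, which marks ESCs, gave Pearson's r = −0.0869, exact p = 0.742, adjusted 0.742, Spearman's rho = −0.164, exact p = 0.604, adjusted 0.604, and r was 0.200 without 2 libraries.

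The other chain pairs gave r of 0.962 for Lamb1 and Lamc1 (exact p = 0.00116, adjusted 0.00289, rho = 0.955, exact p = 0.00116, adjusted 0.00386), 0.872 for Lama1 and Lamb1 (exact p = 0.00752, adjusted 0.0107, rho = 0.845, exact p = 0.0258, adjusted 0.0322) and 0.843 for Lama5 and Lamc1 (exact p = 0.00231, adjusted 0.00386, rho = 0.864, exact p = 0.00463, adjusted 0.00772). Without 2 libraries these were 0.952, 0.787 and 0.764. For Fn1 and Hspg2 the values were Pearson's r = 0.954, exact p = 0.000289, adjusted 0.00145, Spearman's rho = 0.927, exact p = 0.000579, adjusted 0.00289, and r was 0.922 without 2 libraries. The receptor chains Itga6 and Itgb1 had Pearson's r = 0.244, exact p = 0.439, adjusted 0.488, Spearman's rho = 0.464, exact p = 0.175, adjusted 0.195, and r rose to 0.788 without siRNA 1 libraries 1 and 3, so that this relation rests on which libraries are kept.

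**Figure D3:**
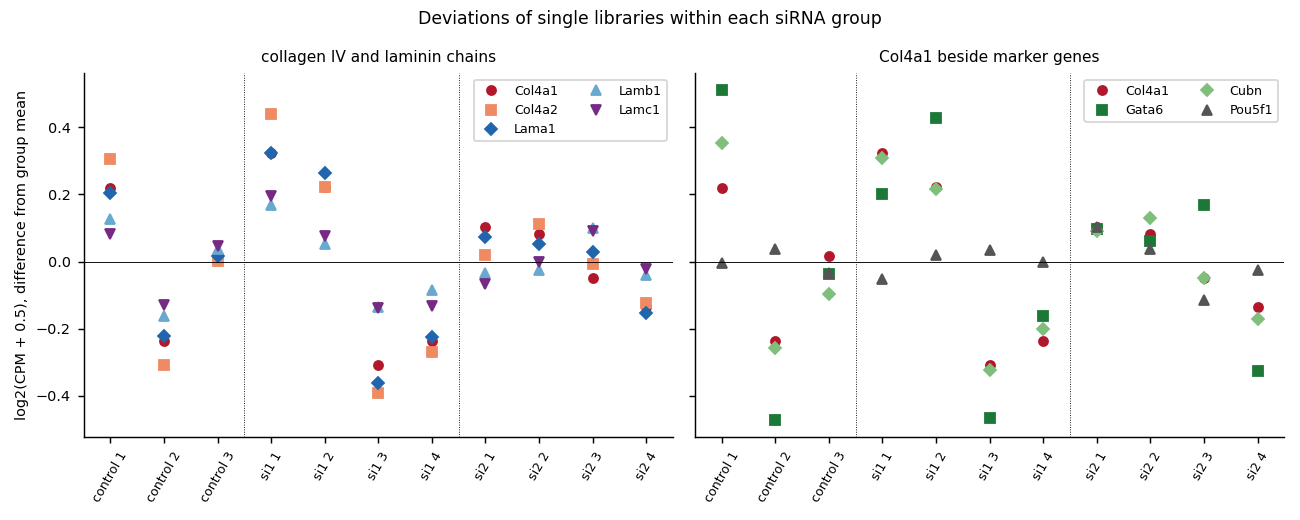
Difference of log2(CPM + 0.5) from the group mean in each library (si1 and si2 are CMTR1 siRNA 1 and 2), for collagen IV and laminin chains (left) and for Col4a1 beside the markers Gata6, Cubn and Pou5f1 (right). Control library 1 and siRNA 1 libraries 1 and 2 lie above 0 and control library 2 and siRNA 1 libraries 3 and 4 below it for Col4a1, Col4a2, Lama1, Gata6 and Cubn.

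Fn1, Hspg2 and Nid2 were lower with siRNA 2 than with siRNA 1. Of the 5 matrix genes of this group, 1 was called with siRNA 1, 2 with siRNA 2 and 3 between the siRNAs. Over all genes tested 4.67%, 9.72% and 7.44% were called. Hspg2, perlecan (ENSMUSG00000028763, chr4:137468769-137570630, plus strand), was at 1199.8, 1100.4 and 1315 CPM in control, 1448, 1309, 1143 and 1215 CPM with siRNA 1 and 969, 1012, 1193 and 999 CPM with siRNA 2. Its siRNA 2 libraries 1, 2 and 4 lay below all others and library 3 among them. It was lower with siRNA 2 than with siRNA 1 (log2 fold change −0.29, SE 0.06, FDR adjusted P-value 0.000356), a call that held in all 20 alternative fits. Against control it was also called (log2 fold change −0.21, SE 0.06, FDR adjusted P-value 0.0187), but not without control replicate 3 (−0.14, 0.230) or siRNA 2 replicates 1, 2 or 4 (−0.17, 0.0873, −0.19, 0.0543 and −0.19, 0.0533), nor by DESeq2 (−0.24, 0.162).

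Fn1, fibronectin, the ligand of the Itga5 and Itgb1 receptor (ENSMUSG00000026193, chr1:71585520-71653200, minus strand), was at 1125, 1113 and 1252 CPM in control, 1294, 1207, 1107 and 1155 CPM with siRNA 1 and 898, 953, 1136 and 946 CPM with siRNA 2. Here too siRNA 2 library 3 lay among the control libraries and the other 3 below them. Fn1 was lower with siRNA 2 than with siRNA 1 (log2 fold change −0.28, SE 0.05, FDR adjusted P-value 0.000264) and than in control (log2 fold change −0.24, SE 0.05, FDR adjusted P-value 0.00236), the latter not without control replicate 3 (−0.19, 0.0622). With siRNA 1 its log2 fold change was 0.033 (95% interval −0.077 to 0.14).

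Nid2, a nidogen that links laminin and collagen IV (ENSMUSG00000021806, chr14:19751265-19811787, plus strand), was at 470.2, 433 and 485 CPM in control, 583, 546, 502 and 508 CPM with siRNA 1 and 415, 434, 471 and 444 CPM with siRNA 2. All siRNA 1 libraries lay above all control and all siRNA 2 libraries. It was higher with siRNA 1 than in control (log2 fold change 0.21, SE 0.05, FDR adjusted P-value 0.00667), though not without control replicate 2 (0.16, 0.124), and lower with siRNA 2 than with siRNA 1 (log2 fold change −0.28, SE 0.05, FDR adjusted P-value 5.98e-05). Its exons share 8.45% of their bases with Rtraf on the opposite strand. With siRNA 1 and siRNA 2, Nid1, the related nidogen, gave log2 fold changes of −0.14 (95% interval −0.29 to 0.0086) and −0.18 (−0.33 to −0.034), and Sparc 0.10 (−0.029 to 0.22) and 0.15 (0.023 to 0.27), with neither called.

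Col18a1, the basement membrane collagen that is the source of endostatin (ENSMUSG00000001435, chr10:77052178-77166548, minus strand), was at 702, 674 and 773 CPM in control, 819, 786, 698 and 711 CPM with siRNA 1 and 601, 634, 707 and 681 CPM with siRNA 2. Its groups overlapped. It was called only between the siRNAs (log2 fold change −0.20, SE 0.05, FDR adjusted P-value 0.00636), and not without siRNA 2 replicate 1 (−0.16, 0.0562).

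With siRNA 2, fibrillar collagens were called in both directions. With siRNA 1, 2 of 10 tested were called, and with siRNA 2, 5 of 10, of which 2 were higher and 3 lower, beside 4.67% and 9.72% of all genes tested. Col1a1, a chain of the main collagen of skin and bone (ENSMUSG00000001506, chr11:94936224-94953042, plus strand), was at 8.25, 8.26 and 9.42 CPM in control, 8.46, 9.22, 8.58 and 7.89 CPM with siRNA 1 and 14.2, 14.2, 12.8 and 16.7 CPM with siRNA 2. The 4 siRNA 2 libraries lay above all others. It was higher with siRNA 2 than in control (log2 fold change 0.75, SE 0.13, FDR adjusted P-value 6.42e-05) and than with siRNA 1 (log2 fold change 0.76, SE 0.12, FDR adjusted P-value 2.05e-05), in all 20 alternative fits. Its partner chain Col1a2 was at 8.88 to 12 CPM in control and 10.7 to 15.2 CPM with siRNA 2 (log2 fold change 0.32, FDR adjusted P-value 0.124).

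Collagen V starts collagen fibrils and limits their width, and 2 of its 3 chains were called. Col5a3 (ENSMUSG00000004098, chr9:20770050-20815067, minus strand) was at 9.65, 10.6 and 11.2 CPM in control, 12.5, 15.8, 14.1 and 14.6 CPM with siRNA 1 and 13.8, 13.2, 17.3 and 16.3 CPM with siRNA 2. Both sets of siRNA libraries lay above all control libraries. Col5a3 was higher with siRNA 1 (log2 fold change 0.45, SE 0.13, FDR adjusted P-value 0.0256) and with siRNA 2 (log2 fold change 0.53, SE 0.12, FDR adjusted P-value 0.00339). The siRNA 1 call was lost without control replicate 1 (0.39, 0.121), control replicate 2 (0.46, 0.0913) and siRNA 1 replicates 2 or 4 (0.39, 0.122 and 0.44, 0.0546) and with DESeq2 (0.42, 0.0848), while the siRNA 2 call held in all 20. Between the siRNAs Col5a3 had a log2 fold change of 0.081 (95% interval −0.14 to 0.30).

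Col5a2 (ENSMUSG00000026042, chr1:45374321-45503282, minus strand) was at 8.13, 9.0 and 10.1 CPM in control, 16.8, 13.5, 13.2 and 14.4 CPM with siRNA 1 and 11.1, 10.02, 13.2 and 11 CPM with siRNA 2. The siRNA 1 libraries lay above all control libraries and the siRNA 2 libraries overlapped with both. It was higher with siRNA 1 (log2 fold change 0.67, SE 0.13, FDR adjusted P-value 0.000816), in all 20 alternative fits, and gave a log2 fold change of 0.32 with siRNA 2 (FDR adjusted P-value 0.137). Col5a1, the third chain, was at 27.5 to 32.5 CPM in control, 33.7 to 42 CPM with siRNA 1 and 32.6 to 41.5 CPM with siRNA 2, and neither difference passed (FDR adjusted P-values 0.0926 and 0.0619).

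Col2a1 and Col11a2 code for collagens of cartilage. Col2a1 (ENSMUSG00000022483, chr15:97975602-98004695, minus strand) was at 32.4, 32.4 and 38.2 CPM in control, 36.4, 38.5, 32.9 and 33.7 CPM with siRNA 1 and 28.4, 26.4, 28.3 and 27.3 CPM with siRNA 2, with the siRNA 2 libraries below all others. It was lower with siRNA 2 than in control (log2 fold change −0.32, SE 0.08, FDR adjusted P-value 0.00914), though not without control replicate 3 (−0.23, 0.132), and than with siRNA 1 (log2 fold change −0.36, SE 0.08, FDR adjusted P-value 0.00159), in all 20 alternative fits. Col11a2 (ENSMUSG00000024330, chr17:34039437-34066685, plus strand) was at 5.33, 5.80 and 4.98 CPM in control and 2.41, 2.62, 3.91 and 3.83 CPM with siRNA 2, with no overlap. It was lower with siRNA 2 (log2 fold change −0.75, SE 0.20, FDR adjusted P-value 0.0119), a call lost without control replicate 2 (−0.69, 0.0704) or siRNA 2 replicate 1 (−0.65, 0.0537). Its partner Col11a1 was at 2.67 to 2.83 CPM in control, 3.61 to 5.21 CPM with siRNA 1 and 2.98 to 5.12 CPM with siRNA 2, above control in all 8 libraries but not called (FDR adjusted P-values 0.0662 and 0.139).

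Col3a1, a collagen of distensible tissues (ENSMUSG00000026043, chr1:45311538-45349706, plus strand), was near the floor at 2.16, 1.36 and 1.21 CPM in control, 0.445, 0.748, 1.19 and 1.07 CPM with siRNA 1 and 0.852, 0.477, 0.809 and 0.247 CPM with siRNA 2. All siRNA libraries lay below all control libraries. It was called lower with siRNA 2 (log2 fold change −1.42, SE 0.40, FDR adjusted P-value 0.0180), but not without control replicate 1 (−1.12, 0.136) or siRNA 2 replicates 2 or 4 (−1.32, 0.0525 and −1.15, 0.0712). DESeq2 gave no adjusted P-value for it, and edgeR's own filter removed it. Markers of fibroblasts, the usual source of fibrillar collagens, summed to 19.9 to 26.2 CPM in control, 18.6 to 23.1 CPM with siRNA 1 and 21.97 to 28.8 CPM with siRNA 2. Of the 10 markers 5 could be tested, S100a4 was at 0 in all 11 libraries, and Dcn was higher with siRNA 2 (log2 fold change 1.13, FDR adjusted P-value 0.00209). Their part in the fibrillar collagen values was not tested.

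Of the 16 other collagens tested, none was called with siRNA 1, by edgeR or DESeq2, and 1 with siRNA 2. Over all genes tested edgeR called 4.67% and 9.72%. At an unadjusted P-value below 0.05 the counts were 0 and 7, beside 2698 and 3733 of all 16073 genes tested. The called gene was Col6a5, a chain of the collagen VI family (ENSMUSG00000091345, chr9:105856078-105960643, minus strand), at 16.3, 15.8 and 14.3 CPM in control, 16.6, 16.2, 14.7 and 13.1 CPM with siRNA 1 and 25, 24.2, 22.6 and 16.1 CPM with siRNA 2. Of its siRNA 2 libraries 3 lay above all others and library 4 among the control libraries. Col6a5 was higher with siRNA 2 than in control (log2 fold change 0.50, SE 0.12, FDR adjusted P-value 0.00335) and than with siRNA 1 (log2 fold change 0.53, SE 0.11, FDR adjusted P-value 0.00105), in all 20 alternative fits. Col9a2, a cartilage collagen and among the higher of this group per length, gave log2 fold changes of −0.30 (95% interval −0.66 to 0.050) and −0.35 (−0.70 to 0.0063). Log2 fold changes of the 16 ranged from −0.30 (Col9a2) to 0.48 (Col6a2) with siRNA 1 and from −0.48 (Col13a1) to 0.84 (Col6a2) with siRNA 2, most of them under 10 CPM.

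**Figure D4:**
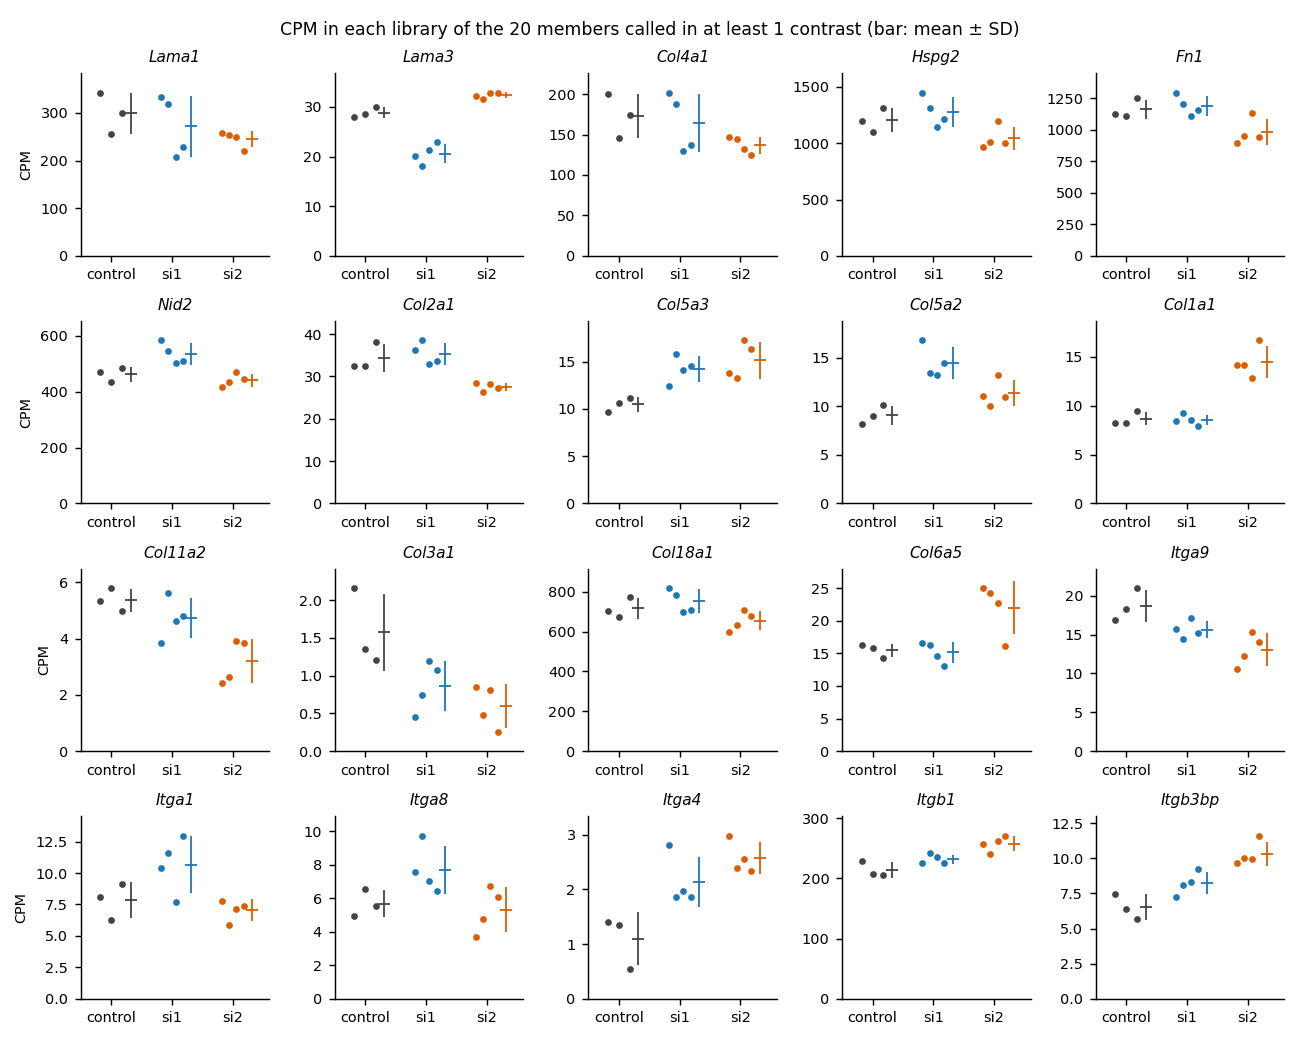
CPM in each library of the 20 members called in at least 1 comparison, for control siRNA (dark grey), CMTR1 siRNA 1 (si1, blue) and CMTR1 siRNA 2 (si2, orange), with the group mean ± SD as a bar beside the points; all axes start at 0. Lama3 is low with siRNA 1, Col1a1 is high with siRNA 2, and Lama1 and Col4a1 spread widely in control and siRNA 1.

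The 3 highest integrin alpha chains were not called in any comparison. Itga6 was at 277 to 296 CPM in control, 260.3 to 303 CPM with siRNA 1 and 271 to 285 CPM with siRNA 2, and its log2 fold changes had 95% intervals of −0.10 to 0.091 and −0.14 to 0.056. For Itga3 the intervals were −0.078 to 0.13 and −0.10 to 0.11. For Itga5 they were −0.22 to 0.0015 and −0.075 to 0.14, and the siRNA 1 libraries, at 129 to 135 CPM, lay below the control range of 139 to 148 CPM without passing the test (FDR adjusted P-value 0.305).

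Of the 10 tested alpha chains 2 were called with siRNA 2 and none by edgeR or DESeq2 with siRNA 1. Over all genes tested edgeR called 9.72% with siRNA 2 and 4.67% with siRNA 1. With siRNA 1, 4 of the 10 had an unadjusted P-value below 0.05, beside 2698 of all 16073 genes tested. Itga4, a receptor chain for fibronectin and VCAM1 (ENSMUSG00000027009, chr2:79255426-79333123, plus strand), was at 1.40, 1.36 and 0.538 CPM in control, 2.82, 1.87, 1.98 and 1.87 CPM with siRNA 1 and 2.98, 2.39, 2.56 and 2.35 CPM with siRNA 2. All siRNA libraries lay above all control libraries, and the gene passed the filter through the siRNA libraries, which favoured its call. It was higher with siRNA 2 (log2 fold change 1.19, SE 0.31, FDR adjusted P-value 0.00844), though not without control replicate 3 (0.88, 0.103), and its log2 fold change was 0.92 with siRNA 1 (FDR adjusted P-value 0.0937). DESeq2 gave no adjusted P-value with siRNA 2, and 8.04% of its exon bases are shared with Cerkl on the opposite strand. Itga9, whose ligands include tenascin-C (ENSMUSG00000039115, chr9:118606690-118901003, plus strand), was at 16.9, 18.3 and 21 CPM in control, 15.7, 14.5, 17.2 and 15.2 CPM with siRNA 1 and 10.5, 12.3, 15.4 and 14.1 CPM with siRNA 2, with the siRNA 2 libraries below all control libraries. It was lower with siRNA 2 (log2 fold change −0.51, SE 0.12, FDR adjusted P-value 0.00236), in all 20 alternative fits.

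The collagen receptor chain Itga1 (ENSMUSG00000042284, chr13:114953096-115101964, minus strand) and Itga8, the alpha chain of the nephronectin receptor (ENSMUSG00000026768, chr2:12106632-12301922, minus strand), were called between the siRNAs and in neither comparison with control. Itga1 was at 8.13, 6.29 and 9.15 CPM in control, 10.4, 11.6, 7.66 and 13 CPM with siRNA 1 and 7.81, 5.85, 7.15 and 7.41 CPM with siRNA 2. Its groups overlapped, and siRNA 2 was lower than siRNA 1 (log2 fold change −0.60, SE 0.15, FDR adjusted P-value 0.00732), though not without siRNA 1 replicate 4 (−0.49, 0.0536). Its exons share 3.68% of their bases with Gm49395 on the same strand. Itga8 was at 4.95 to 6.54 CPM in control, 7.57, 9.72, 7.0 and 6.42 CPM with siRNA 1 and 3.69, 4.77, 6.74 and 6.05 CPM with siRNA 2 (log2 fold change −0.53, SE 0.17, FDR adjusted P-value 0.0415). That call was lost without siRNA 1 replicates 1 or 2 (−0.54, 0.0728 and −0.39, 0.237) or siRNA 2 replicates 1 or 2 (−0.40, 0.184 and −0.48, 0.117) and with DESeq2 (−0.54, 0.0990), and 5.05% of its exon bases are shared with an opposite-strand gene.

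Of 6 integrin beta chains 1 was called with siRNA 2 and none by edgeR or DESeq2 with siRNA 1. Over all genes tested edgeR called 9.72% with siRNA 2 and 4.67% with siRNA 1. With siRNA 1, 2 of the 6 had an unadjusted P-value below 0.05, beside 2698 of all 16073 genes tested. Itgb1 (ENSMUSG00000025809, chr8:128685654-128733200, plus strand) was at 229, 207 and 206 CPM in control, 226, 242, 235 and 225 CPM with siRNA 1 and 257, 241, 263 and 271 CPM with siRNA 2. Its siRNA 2 libraries lay above all control libraries, and the siRNA 1 libraries lay between and overlapped with both. Itgb1 was higher with siRNA 2 than in control (log2 fold change 0.27, SE 0.05, FDR adjusted P-value 0.000188), in all 20 alternative fits. Against siRNA 1 it was also called (log2 fold change 0.15, SE 0.05, FDR adjusted P-value 0.0277), but not without siRNA 1 replicates 1 or 4 (0.14, 0.0796 and 0.14, 0.0949) or siRNA 2 replicates 1 or 4 (0.15, 0.0610 and 0.13, 0.109). For the log2 fold changes with siRNA 1 and siRNA 2, Itgb5, a vitronectin receptor chain, gave 95% intervals of −0.060 to 0.32 and −0.11 to 0.26 and Itgb7, found mainly on leukocytes, of −0.49 to 0.094 and −0.29 to 0.27.

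Of the 4 genes that share only the form of name, Itgb3bp, a kinetochore protein also known as CENP-R (ENSMUSG00000028549, chr4:99765402-99929813, minus strand), was at 7.49, 6.41 and 5.65 CPM in control, 7.27, 8.10, 8.32 and 9.22 CPM with siRNA 1 and 9.66, 10.02, 9.98 and 11.6 CPM with siRNA 2, with the siRNA 2 libraries above all others. Its level was higher with siRNA 2 (log2 fold change 0.66, SE 0.15, FDR adjusted P-value 0.00190), in all 20 alternative fits, and 8.59% of its exon bases are shared with Pgm1 on the opposite strand. Col4a3bp, the ceramide transporter, gave log2 fold changes with siRNA 1 and siRNA 2 of −0.090 (95% interval −0.23 to 0.050) and 0.018 (−0.12 to 0.16). Itgb1bp1 and Itgb1bp2, which bind the tail of Itgb1, were at 12.4 ± 2.0 and 6.80 ± 0.18 CPM (SD, n = 3) in control and were not called. Itgb1bp1 shares 16.9% of its exon bases with opposite-strand genes.

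Among 40 other genes of basement membrane and matrix, 11 of the 33 tested were called with siRNA 1, 7 higher and 4 lower, and 15 with siRNA 2, 11 higher and 4 lower. Over all genes tested 4.67% were called with siRNA 1, 2.71% higher and 1.97% lower, and 9.72% with siRNA 2, 6.17% higher and 3.55% lower. The microfibril gene Fbn2 was higher with siRNA 1 (log2 fold change 0.70, FDR adjusted P-value 1.00e-06) and siRNA 2 (0.41, 0.00229), as were Fbn1, Pxdn, the peroxidase that cross-links collagen IV (0.53 and 0.42), and the glypican Gpc4. The tenascin gene Tnc was lower with siRNA 1 (−1.19, 0.00206) and siRNA 2 (−0.76, 0.0301). Vcan, Frem2 and Sdc1 were higher and Thbs1, Smoc1 and Spp1 lower with siRNA 1. With siRNA 2, Tgfbi (1.00, 7.39e-07), Dcn, Ltbp2, Sdc2, Thbs2, Fras1 and Sdc4 were higher and Ntn1, Ltbp4 and Agrn lower.

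Of 22 tested genes of collagen modification and secretion, 3 were called with siRNA 1 and 4 with siRNA 2. Serpinh1, the collagen chaperone, was higher with siRNA 1 (log2 fold change 0.36, FDR adjusted P-value 0.000638) and siRNA 2 (0.23, 0.0264), Colgalt1 was higher and P3h4 lower with siRNA 1, and Plod2, Loxl1 and Pcolce were higher with siRNA 2. Of 18 matrix proteases and inhibitors, 4 and 3 were called, all higher. Mmp2, a gelatinase, gave log2 fold changes with siRNA 1 and siRNA 2 of 0.49 and 0.53, Serpine2 0.65 and 0.48, and Mmp16 1.26 and 1.17, with Reck higher with siRNA 1. Mmp16 passed the filter through the siRNA libraries, with 1 of the 3 control libraries over 1 CPM, so its calls were favoured by the filter. Of 12 integrin adaptors, 1 and 2 were called: the talin gene Tln1 was higher with siRNA 1 (0.15) and siRNA 2 (0.17), and Parvb was lower with siRNA 2 (−0.59). Of 3 letter-named integrin subunits, Itgav was higher with siRNA 1 (0.22, 0.0216). Over these 5 lists 20 of 88 tested genes were called with siRNA 1 and 24 of 88 with siRNA 2, beside 4.67% and 9.72% of all genes, and DESeq2 called 13 and 15. Without control replicate 2 the counts were 10 and 13, without siRNA 1 replicate 2 the siRNA 1 count was 13, and without control replicate 3 the siRNA 2 count was 14. Their median log2 fold changes were 0.12 and 0.10, beside 0.024 and 0.029 over all genes.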

How the data were processed

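RNA-seq of E14 ESCs was made by the authors from rRNA-depleted, directional libraries of 75-base paired reads, 36 h after transfection. Per the labels and the study's methods FastQC, cutadapt, STAR (to GRCm38), Picard for duplicate removal and featureCounts for reads per gene were used in turn, of which the versions are not given in the sources used here. The deposited values are raw counts of reads for 54838 Ensembl genes in each of 11 libraries. The strand setting of the counting is not given in those sources, so reads of genes that overlap on opposite strands may be shared, and removal of duplicates can lower the counts of highly expressed genes. Closing summary lines in 10 of the 11 files look like those of HTSeq-count rather than featureCounts and were left out of library sizes. Per library they give 5314618 to 6998875 reads outside genes, 137308 to 164565 as ambiguous and 787556 to 974693 as not unique. The methods speak of 3 biological replicates, and all libraries were used (3, 4 and 4).

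Symbols, biotypes, coordinates and exon lengths come from GENCODE M21 (54809 identifiers matched), and promoter windows from RefSeq (61 of the 85 members matched). Genes with more than 1 CPM in at least 4 libraries (16073) were tested with edgeR 4.0.16 in R 4.3.3, by its quasi-likelihood test on 1 model of the 3 groups with total-count scaling, as the methods state library size. P-values were adjusted by Benjamini-Hochberg over all genes tested, called at 0.05, with 95% intervals. CPM per kilobase uses the union of a gene's exons and counts each gene's total reads. Alternatives were TMM factors (0.986 to 1.012), DESeq2 1.42.0, exactTest, 2 other filters, a fit of 2 groups, a replicate block, removal of length or GC trends (99.9% of tested genes have both values), a 1.5-fold threshold, the members without the 4 genes that code for no chain, and each library left out. Leaving out siRNA 1 replicates 3 and 4 together was added after the values were seen.

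The members and gene lists were chosen with earlier results of these data known, and the other lists are from general knowledge. Members called in any comparison, the 3 highest of each family per length and, in the other lists, genes called with either siRNA were named, besides Cmtr1. Col1a2, Col11a1, Lamb2, Nid1, Sparc, Col4a3, Col4a4, Col4a6, Col6a2, Col13a1, Itgb2l and marker genes were also named, after their values were seen. Of the tested members 1 is counted in all totals but is not reported here by name or drawn. Samples of the same number did not deviate together over all genes tested (r of −0.0574 to 0.0616 in 10 pairs). No replicate pair agreed within counting noise (chi-square per gene 1.31 to 2.94). On simulated counts for siRNA 1 against control, with 15878 genes and 199 changed, the code called 156, 9 of them unchanged. It recovered 86 of 100 genes changed 2-fold and 61 of 99 genes changed 2^0.5-fold. Tables, permutation tests and figures were made in Python 3.11.15 (pandas 2.3.3, matplotlib 3.10.9).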

Additional observations from a re-analysis of the deposited data

Results flagged for a closer look

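In 2 groups of 4 libraries 1 library stood apart from the other 3 by Dixon's test, of 70 such tests on the members, and chance alone would give about 1 in 20. Lamb1 was at 374 CPM in siRNA 2 library 3 against 339 to 343 CPM in the others, and Itga4 was at 2.82 CPM in siRNA 1 library 1 against 1.87 to 1.98 CPM.

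The effects of the siRNAs differed in the direct comparison for 11 members, given as log2 fold change of siRNA 2 minus siRNA 1. It was 0.76 for Col1a1, 0.65 for Lama3, 0.53 for Col6a5 and 0.15 for Itgb1. It was −0.60 for Itga1, −0.53 for Itga8, −0.36 for Col2a1, −0.29 for Hspg2, −0.28 for Nid2, −0.28 for Fn1 and −0.20 for Col18a1. Over all genes 7.44% were called in this comparison.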

How the results depend on the processing

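Of 29 calls of a member in a comparison, none changed direction in any of the 20 alternative fits. TMM factors, exactTest, the other filters, the fit of 2 groups and the removal of length or GC trends kept every call that they could give, with Col3a1 removed by edgeR's own filter. DESeq2 lost 5 calls and gave no adjusted P-value for 2. Leaving out 1 library gave 2 to 5 members called with siRNA 1, 10 to 17 with siRNA 2 and 8 to 18 between the siRNAs, against 4, 14 and 11, and the calls lost stand beside each gene. Without control replicate 2 the count with siRNA 1 was 2, and without siRNA 1 replicate 3 the count between the siRNAs was 18. Without siRNA 1 replicates 3 and 4 together the counts were 7 with siRNA 1 and 17 between the siRNAs. DESeq2 called 9 members with siRNA 2. A fold change of at least 1.5 left 1, 5 and 3. For the 5 other lists DESeq2 called 13 and 15 genes, and leaving out 1 library gave 10 to 22 with siRNA 1 and 13 to 24 with siRNA 2. Beyond fewer samples or a stricter threshold, the cause was not tested.

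Over all genes tested, libraries of the same replicate number did not deviate together (r of −0.0574 to 0.0616 in 10 pairs). Single members can still share an order by number. In both siRNA groups libraries 1 and 2 lay above libraries 3 and 4 for Col4a1, Lama1 and Sparc. For Fn1 this was not so, and siRNA 2 library 3 was the highest of its group. Any batch behind such an order was not tested. With the replicate number as a block 5, 16 and 12 members were called, and of the 29 calls only that of Lama1 with siRNA 2 was lost (−0.22, 0.0513, log2 fold change and FDR adjusted P-value). Members under 10 CPM, among them Col3a1, Itga4 and Col11a2, rest on few reads. The 22 members below the filter were not tested in the counts of 4, 14 and 11. Without a filter 84 members were tested and 4, 15 and 14 were called.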
